A study of Mus musculus with 18 samples.

Results

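Mitosis genes are the 48 genes, of 21937 in the deposited table, that encode the kinases, checkpoint proteins, kinetochore and spindle components, kinesins, condensin subunits and cytokinesis factors of cell division. The rule lists them by name. All 48 were in the table and passed the filter of a mean of at least 10 normalized reads over all libraries, which left 12393 genes. They were divided by known role into 9 lists: 6 mitotic entry genes, 5 spindle checkpoint genes, 4 anaphase genes, 3 chromosomal passenger genes, 6 kinetochore genes, 8 kinesins, 7 condensin and chromosome genes, 5 spindle genes and 4 cytokinesis genes.

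RNA was measured in NIH3T3 cells, an established line of mouse embryonic fibroblasts. All cells had received 100 nM dexamethasone, a synthetic glucocorticoid, for 2 h. The change to normal culture medium that ended the treatment was called 0 h, and cells were harvested at 0 h and then every 4 h up to 32 h, with 2 libraries at each of 9 times (18 in all). Every library, those at 0 h included, came from treated cells, so the 0 h libraries are the end of a glucocorticoid pulse and not untreated cells. The line divides in culture, and the labels give neither cell density nor whether the 2 libraries of a time came from separate dishes, so p-values measure the spread between these libraries, which may be technical.

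Mitosis begins when Cdk1, activated by B-type cyclins and Cdc25 phosphatases, drives chromosome condensation and spindle assembly. The spindle checkpoint holds cells until every kinetochore is attached. The anaphase-promoting complex, a ubiquitin ligase, then destroys securin and cyclin B, which frees separase to part the sister chromatids, and a contractile ring divides the cell. Most of these genes are transcribed late in the cell cycle and are low in cells that do not divide, so their RNA in a bulk culture follows how many cells are near division as well as how much each cell makes. In these bulk libraries more cells near division and more RNA per cell cannot be told apart.

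A feature shared by many members is in their promoters. Genes transcribed late in the cell cycle often carry the cell cycle genes homology region (CHR) and CCAAT boxes, the letters that factor NF-Y binds. In RefSeq promoters of the GRCm38.p6 build, from 250 bases before to 50 bases after the annotated start, 40 of the 48 members had an entry, with 43 promoters. The CHR was searched as TTTGAA and its complement TTCAAA, and the CCAAT box as CCAAT and ATTGG. A match of one motif may share an end letter with a match of the other. The CHR letters were in 33 of 43 member promoters (76.7%), against 11.9% of 11107 promoters of tested genes and 17.9% of all 32851. The CCAAT letters were in 74.4% of member promoters, against 38.1% and 37.4%, and both motifs in 67.4%, against 4.81% and 6.95%. A narrower stretch, from 50 bases before to 50 bases after the start, was chosen after the positions were seen. In it 67.4% of member promoters held the CHR letters, against 3.09% and 4.94%. Birc5, Kif18a, Mad2l1, Ncaph, Nuf2, Nusap1 and Pttg1 had neither motif from 250 bases before to 50 bases after the start.

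The 120 bases before the start are printed for 10 members, 5′ to 3′ in the direction of transcription. They show where these letters lie before the start in those 10, with CHR and CCAAT letters of either strand in capitals. The GRCm38.p6 positions are Cdk1 at chr10:69352913-69353032 on the minus strand, Cdc20 at chr4:118437344-118437463 on the minus strand, Ube2c at chr2:164769809-164769928 on the plus strand, Espl1 at chr15:102296173-102296292 on the plus strand, Kif11 at chr19:37376262-37376381 on the plus strand. They are Kif2c at chr4:117178773-117178892 on the minus strand, Kif22 at chr7:127042421-127042540 on the minus strand, Ncapg at chr5:45669805-45669924 on the plus strand, Top2a at chr11:99024190-99024309 on the minus strand and Mki67 at chr7:135716380-135716499 on the minus strand.
Cdk1: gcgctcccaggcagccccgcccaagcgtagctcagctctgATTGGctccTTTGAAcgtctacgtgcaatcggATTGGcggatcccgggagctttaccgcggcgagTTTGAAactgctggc
Cdc20: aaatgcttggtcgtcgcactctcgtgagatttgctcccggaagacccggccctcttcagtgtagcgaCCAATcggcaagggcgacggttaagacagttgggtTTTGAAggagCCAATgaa
Ube2c: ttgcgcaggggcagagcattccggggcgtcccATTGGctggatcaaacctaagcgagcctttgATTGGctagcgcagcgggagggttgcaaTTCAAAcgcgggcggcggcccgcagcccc
Espl1: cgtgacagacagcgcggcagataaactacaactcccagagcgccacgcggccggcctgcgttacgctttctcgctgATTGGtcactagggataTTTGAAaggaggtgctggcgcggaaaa
Kif11: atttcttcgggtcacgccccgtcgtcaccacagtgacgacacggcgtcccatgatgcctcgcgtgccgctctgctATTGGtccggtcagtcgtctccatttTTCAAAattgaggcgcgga
Kif2c: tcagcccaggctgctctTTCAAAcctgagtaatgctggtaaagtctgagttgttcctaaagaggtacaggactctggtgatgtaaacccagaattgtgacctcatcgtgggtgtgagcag
Kif22: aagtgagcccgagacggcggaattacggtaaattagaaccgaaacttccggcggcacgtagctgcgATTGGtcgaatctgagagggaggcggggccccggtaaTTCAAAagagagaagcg
Ncapg: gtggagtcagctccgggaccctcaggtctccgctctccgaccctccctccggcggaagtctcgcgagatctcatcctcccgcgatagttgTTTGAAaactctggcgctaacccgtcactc
Top2a: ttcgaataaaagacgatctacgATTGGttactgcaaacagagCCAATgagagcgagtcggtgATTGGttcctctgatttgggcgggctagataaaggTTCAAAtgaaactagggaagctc
Mki67: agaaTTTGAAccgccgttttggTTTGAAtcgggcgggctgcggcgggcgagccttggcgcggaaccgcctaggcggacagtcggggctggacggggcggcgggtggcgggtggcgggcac

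These 10 promoters were chosen because their gene had a single entry and CHR letters in the printed stretch. So they show neither how common the motif is nor where it lies in the other members. Letters after the start are outside the printed stretch. From 50 bases before to 50 bases after the start, 29 of 43 member promoters held CHR letters. In Cdk1 the CHR letters began 71 and 15 bases before the start, with CCAAT letters at 80 and 48 bases. In Cdc20, Ube2c, Espl1, Kif11, Kif22, Ncapg and Top2a a single CHR began 18, 29, 27, 19, 17, 30 and 23 bases before the start. Kif2c held it 103 bases before, and Mki67 held it 116 and 98 bases before. Kif2c, Ncapg and Mki67 had no CCAAT letters in the printed stretch. The 30 members with the CHR letters had a median log2 change of 0.76 at 20 h against 0 h (0.23 to 1.46), and the 10 without had 0.70 (0.53 to 1.01), so the ranges overlapped. A match of letters is a description and not a binding site.

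The libraries held 25.4 to 38.9 M reads, and the normalized totals were 30.0 to 35.1 M. Values are in normalized reads, counts scaled by 1 factor for each library, so levels are compared between times and never between genes. Fibroblast markers (Col1a1, Col1a2, Col3a1, Vim, Fn1, Thy1, S100a4, Pdgfra and Pdgfrb) all passed the filter, with summed levels of 853910.0 to 972788 normalized reads at 20 h and 1158340.0 to 1230080.0 at 0 h. The 6 epithelial markers summed to 169.9 to 171 at 20 h and 832 to 1122 at 0 h, mostly Krt8 and Krt18, with 4 below the filter, and the 5 skeletal muscle markers to 1443 to 1714 at 20 h and 5087 to 6149 at 0 h, mostly Acta1, with Myod1 at 0. Leukocyte, endothelial and adipocyte markers summed to at most 416, 105 and 62.7 in any library, with Cd3e, Kdr and Lep at 0. The part of the lower fibroblast, epithelial and muscle sums in the results was not tested. The deposited factors set the median gene at no change. Scaling all libraries to equal totals instead moved the median log2 change of all genes upward by 0.03 at 4 h, 0.14 at 8 h and 0.18 to 0.21 from 12 h to 32 h, all against 0 h. Of the genes past the threshold, 51.1% were higher at 4 h with the deposited factors and 61.4% with equal totals, and at 20 h 50.7% and 80.1%. Changes below are on the deposited scale, where the median of all genes was within 0.02 of 0.

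RNA of the mitosis genes was higher throughout the later part of the series than at the end of the pulse, and the highest mean of most members was at 20 h. Members took 0.856% and 0.823% of the reads of the 20 h libraries and 0.772% and 0.742% at 32 h, against 0.472% and 0.451% at 0 h. All 48 members differed among the 9 times, with adjusted p from 1.87e-08 (Aspm) to 0.0111 (Anln). Of all tested genes 52.0% did. Here and below the test is limma on log2(normalized reads + 1) over all 18 libraries, Benjamini-Hochberg adjusted over the 12393 genes with a threshold of 0.05, and log2 changes carry their standard error (SE). This fit has no term for the replicate number, and results with the number as a block are named as such.

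The count of members that rose against 0 h grew with time. At 4 h 18 of 48 rose and 1 fell, where 21.5% of all tested genes passed (11% higher and 10.5% lower). At 8 h 36 rose and 1 fell (background 34.4%, 17.3% higher and 17.1% lower), and at 12 h 39 rose and 2 fell (background 36.2%, 18.1% higher and 18.2% lower). At 16 h 45 rose (background 36.5%, 18.7% higher and 17.8% lower). All 48 rose at 20 h, 24 h and 28 h. The backgrounds were 38.6% at 20 h (19.6% higher and 19% lower), 37.2% at 24 h (18.6% higher and 18.6% lower) and 39.8% at 28 h (19.8% higher and 20% lower). At 32 h 46 rose (background 40.8%, 20.5% higher and 20.4% lower). The median log2 change of the members was 0.12, 0.31, 0.40, 0.58, 0.74, 0.67, 0.62 and 0.60 at 4, 8, 12, 16, 20, 24, 28 and 32 h, against 0 h. These 8 comparisons share the 0 h libraries. With equal totals no member fell. On that scale 19 members rose by 4 h, 43 by 8 h and 46 by 12 h, where 13.6%, 32.4% and 38.5% of all tested genes were higher. All 48 rose at 16, 20, 24, 28 and 32 h, where 40.7%, 42.2%, 43.7%, 45.3% and 44.9% of all tested genes did. Some members passed with equal totals and not on the deposited scale. They were Aurkb at 4 h, and Cdk1, Bub3, Nuf2, Spc25, Prc1, Anln and Racgap1 at 8 h. At 12 h they were Cdk1, Bub3, Cdc20, Pttg1, Nusap1, Prc1 and Anln. At 16 h they were Bub3, Ube2c and Cenpa, and at 32 h Bub3 and Anln.

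**Figure D1:**
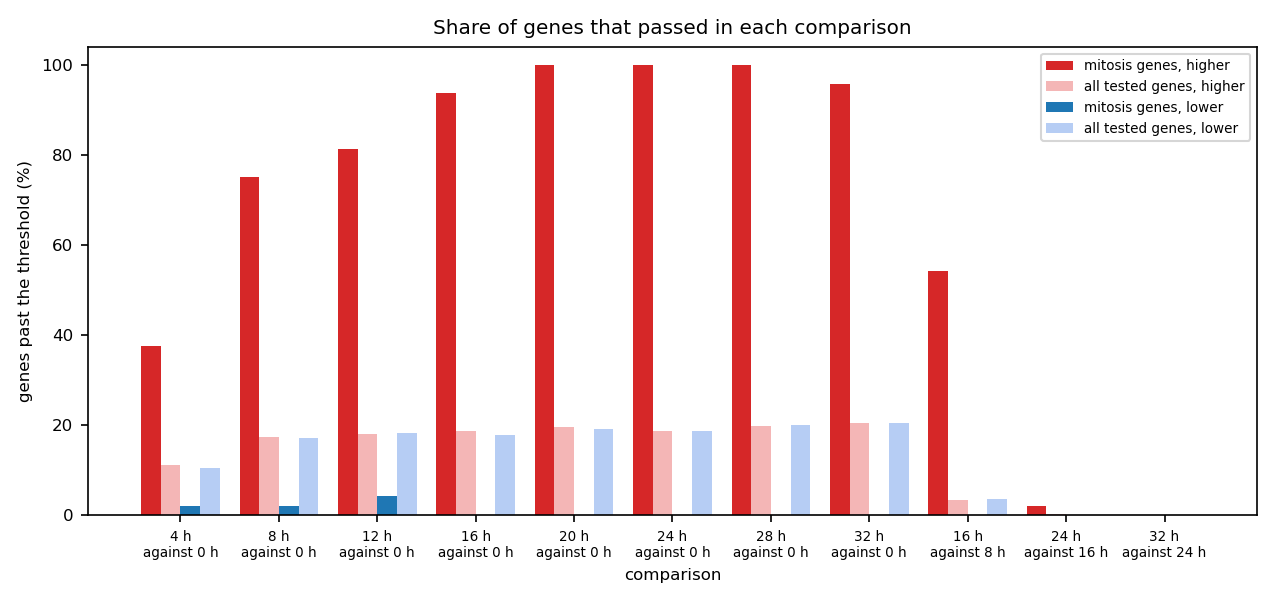
Percent of genes past the threshold (adjusted p 0.05) in each of 11 comparisons, on the vertical axis, for the 48 mitosis genes (dark bars) and all 12393 tested genes (pale bars), higher in red and lower in blue. All 48 members were higher at 20, 24 and 28 h against 0 h, while the pale bars stay near 20% in each direction.

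At 20 h the fold over 0 h ran from 1.17 in Bub3 to 2.75 in Aspm, with a median of 1.67. The 5 members at or above 2-fold were Aspm, Cenpf, Mki67, Kif18a and Bub1b. In all 48 members, every library from 20 h to 32 h was above both 0 h libraries. The mean was highest at 20 h in 39 members, at 24 h in 8 (Cdc25b, Ube2c, Pttg1, Cenpa, Cenpf, Kif20a, Kif18a and Smc4) and at 16 h in Smc2. The replicates differed in this: in replicate 1 the highest value was at 20 h in 40 members and at 24 h in 4, and in replicate 2 at 20 h in 25 and at 24 h in 21. The lowest mean was at 0 h in 38 members, at 4 h in 7 (Mad2l1, Pttg1, Nuf2, Spc25, Ncapd2, Nusap1 and Racgap1), at 8 h in Cenpa and at 12 h in Bub3 and Ube2c. At 32 h members still stood at 80.6% (Kif23) to 97.8% (Dlgap5) of their highest mean, with a median of 89.9%.

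**Figure D2:**
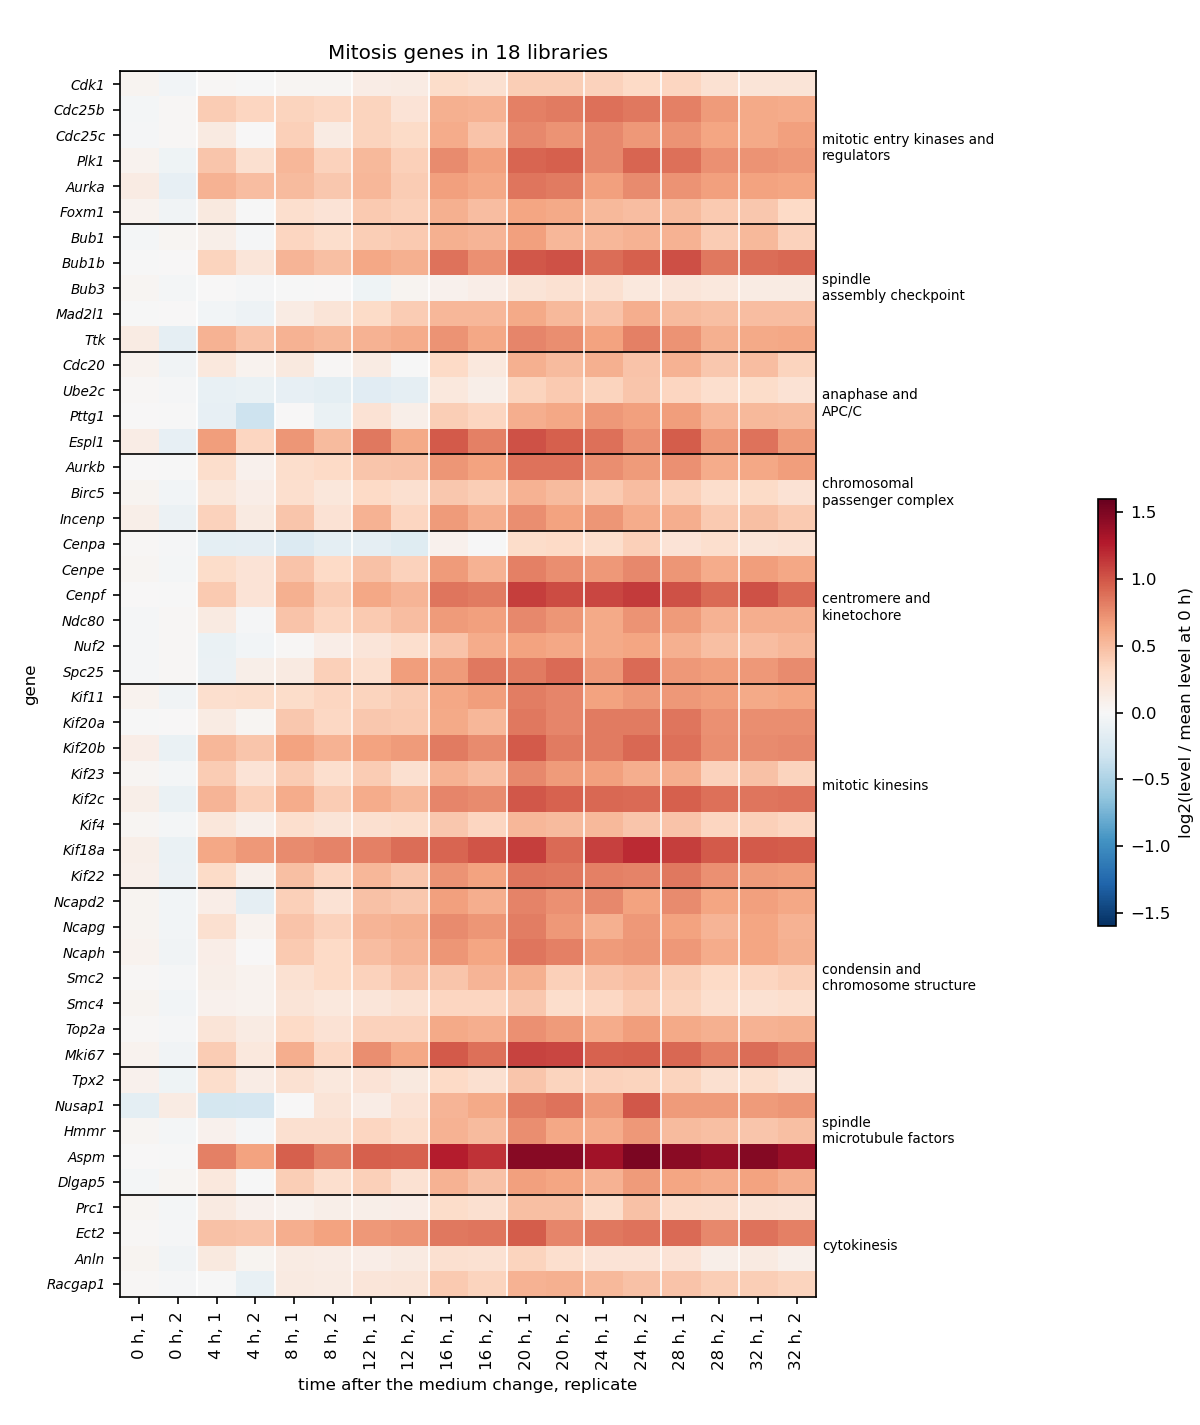
Log2 of the level over the mean level at 0 h for each of 48 genes (rows, by role) in each of 18 libraries (columns, by time and replicate), red above and blue below the 0 h mean. Red covers every gene from 20 h to 32 h, and blue appears at 4 h to 12 h in a few genes such as Nusap1, Pttg1, Cenpa and Ube2c.

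Mitotic entry genes rose by a median log2 of 0.78 at 20 h against 0 h, and all 6 passed. At 4 h Aurka, Cdc25b and Plk1 had already risen, while Cdk1, Cdc25c and Foxm1 had not passed. Cdk1, the kinase that drives entry into mitosis, had 5315 and 5033 normalized reads at 0 h, 5236 and 5132 at 4 h, 5308 and 5282 at 8 h and 5617 and 5686 at 12 h. It had 6358 and 6155 at 16 h, 6794 and 6799.6 at 20 h, 6690.2 and 6454 at 24 h, 6548 and 6123 at 28 h and 5993 and 5979 at 32 h. Its values from 16 h on were above all earlier ones, and the 8 h pair lay within the 0 h range. The rise passed at 16 h (0.27 ± 0.05, adjusted p = 0.000555) and was 0.39 ± 0.05 at 20 h (adjusted p = 2.35e-05), the smallest of the 6 in fold (1.31). At 12 h it was 0.13 ± 0.05 (adjusted p = 0.0563, or 0.0179 with the replicate number as a block, and 0.000258 with equal totals).

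Cdc25b, a phosphatase that activates Cdk1, had 1455 and 1506 normalized reads at 0 h, 1970.0 and 1882 at 4 h, 1897 and 1864 at 8 h and 1892 and 1728 at 12 h. It had 2189 and 2176 at 16 h, 2589.8 and 2632 at 20 h, 2738 and 2654 at 24 h, 2588 and 2368 at 28 h and 2262 and 2237 at 32 h. It went up in steps: the 4 h to 12 h libraries overlapped one another and lay above 0 h and below all those from 16 h on. The change was 0.38 ± 0.06 at 4 h (adjusted p = 0.000614) and 0.86 ± 0.06 at 24 h (adjusted p = 8.32e-08), both against 0 h. Cdc25c, a related phosphatase, was 1.67-fold higher at 20 h (adjusted p = 1.38e-05).

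Plk1, a kinase of centrosomes, kinetochores and cytokinesis, had 1930.0 and 1767 normalized reads at 0 h, 2523 and 2210.0 at 4 h, 2675 and 2391 at 8 h and 2655 and 2411 at 12 h. It had 3125 and 2906 at 16 h, 3529 and 3584 at 20 h, 3153 and 3513 at 24 h, 3419 and 3082 at 28 h and 3055 and 2985 at 32 h. Replicate 1 was above replicate 2 at every time but 20 h and 24 h, and all libraries from 4 h on exceeded the 0 h pair. It rose by 0.35 ± 0.09 at 4 h (adjusted p = 0.0105) and by 0.94 ± 0.09 at 20 h (adjusted p = 1.14e-06), the largest change of the 6 at 20 h. Aurka, the kinase that matures centrosomes and builds the spindle, had the largest change at 4 h, 0.53 ± 0.08 (adjusted p = 0.000298), and 0.47 and 0.48 at 8 h and 12 h.

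Foxm1, a transcription factor that activates many mitotic genes, had 3824 and 3529 normalized reads at 0 h, 4090.3 and 3646 at 4 h, 4422 and 4293 at 8 h and 4910.1 and 4783 at 12 h. It had 5441 and 5177 at 16 h, 5708 and 5608 at 20 h, 5287 and 5156 at 24 h, 5223 and 4929 at 28 h and 4958 and 4604 at 32 h. The 4 h and 0 h libraries overlapped, and the pair at each later time stood above both. The change was 0.07 ± 0.06 at 4 h (adjusted p = 0.46), 0.25 ± 0.06 at 8 h (adjusted p = 0.00934) and 0.62 ± 0.06 at 20 h (adjusted p = 3.87e-06).

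Spindle checkpoint genes, whose proteins delay anaphase until kinetochores are attached, rose by a median of 0.60 at 20 h against 0 h, all 5 past the threshold. Bub1b and Bub3 stood at its ends. Bub1b, a subunit of the checkpoint complex that inhibits Cdc20, had 2272 and 2289 normalized reads at 0 h, 2914 and 2606 at 4 h, 3329 and 3189.8 at 8 h and 3501 and 3372 at 12 h. It had 4155 and 3792 at 16 h, 4561 and 4625 at 20 h, 4237 and 4422 at 24 h, 4669 and 4091 at 28 h and 4255 and 4304 at 32 h. Each pair from 4 h on was above 0 h, and those from 16 h on were above all earlier ones. It rose by 0.27 ± 0.07 at 4 h (adjusted p = 0.0146) and by 1.01 ± 0.07 at 20 h (adjusted p = 1.02e-07).

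Bub3, the partner that carries Bub1 and Bub1b to kinetochores, had 4439.8 and 4233 normalized reads at 0 h, 4351 and 4272 at 4 h, 4303 and 4367 at 8 h and 4136 and 4467 at 12 h. It had 4566 and 4664 at 16 h, 5002 and 5153 at 20 h, 5194 and 4895 at 24 h, 4943 and 4866 at 28 h and 4761 and 4760.1 at 32 h. The 4 h to 12 h libraries overlapped the 0 h pair, and those from 16 h on lay above it by a small margin. With equal totals Bub3 passed at 8 h and 12 h, with changes of 0.14 and 0.17 (adjusted p = 0.0385 and 0.0154), and at 16 h and 32 h, with 0.28 and 0.35 (adjusted p = 0.00044 and 6.64e-05). Quantile normalization gave 0.21 and 0.27 at 16 h and 32 h (adjusted p = 0.00394 and 0.000697). On the deposited scale the rise was 0.23 ± 0.05 at 20 h (adjusted p = 0.00308), the smallest of all 48 members. At 16 h it was 0.09 ± 0.05 (adjusted p = 0.196) and at 32 h 0.14 ± 0.05 (adjusted p = 0.0512, or 0.0237 with the replicate block). Ttk, the kinase that starts checkpoint signalling, had the largest change of the list at 4 h, 0.51 ± 0.09 (adjusted p = 0.00121). Mad2l1, which binds Cdc20, was -0.07 ± 0.06 at 4 h (adjusted p = 0.439). It passed as higher at 8 h, a call that rested on single libraries, and rose by 0.36 ± 0.06 at 12 h (adjusted p = 0.000307). Bub1, the checkpoint kinase, rose by 0.31 ± 0.07 at 8 h (adjusted p = 0.00304).

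Anaphase genes did not move together early. Espl1 rose at 4 h, Pttg1 fell at 4 h, Ube2c fell at 12 h on the deposited scale but not with equal totals, and all 4 rose at 20 h, by a median of 0.57 against 0 h. Pttg1, securin, the inhibitor of separase, had 1183 and 1169.8 normalized reads at 0 h, 1077 and 936 at 4 h, 1183 and 1094 at 8 h and 1375 and 1261 at 12 h. It had 1541 and 1492 at 16 h, 1765 and 1810.4 at 20 h, 1908 and 1858 at 24 h, 1878 and 1698 at 28 h and 1689 and 1678 at 32 h. The 4 h pair was the lowest of the series and lay below the 0 h pair, and from 12 h on every library was above 0 h. The fall at 4 h was -0.23 ± 0.07 (adjusted p = 0.0429). It missed the threshold with equal totals (0.0965), quantile normalization (0.0784), no filter (0.0553), edgeR (0.0551) and DESeq2 (0.0684, all adjusted p). The later rise was 0.68 ± 0.07 at 24 h (adjusted p = 7.92e-06).

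Espl1, separase, the protease that cuts cohesin, had 3704 and 3124 normalized reads at 0 h, 5424 and 4338 at 4 h, 5570.2 and 4832 at 8 h and 6150.0 and 5177 at 12 h. It had 6732 and 5950.0 at 16 h, 6943 and 6647 at 20 h, 6313 and 5652 at 24 h, 6655 and 5513 at 28 h and 6222 and 5452 at 32 h. Replicate 1 was the higher of each pair, and the 0 h pair was below all other libraries. Espl1 rose by 0.51 ± 0.13 at 4 h (adjusted p = 0.0141) and by 0.998 ± 0.13 at 20 h (adjusted p = 3.73e-05). Cdc20, the activator of the anaphase-promoting complex, stayed within 0.06 to 0.12 from 4 h to 12 h without passing and rose by 0.54 ± 0.08 at 20 h (adjusted p = 0.000115). At 4 h its adjusted p was 0.344, or 0.0292 with the block. Ube2c, the ubiquitin-conjugating enzyme of the same complex, was -0.16 ± 0.05 at 12 h (adjusted p = 0.0315), where equal totals gave 0.017, and 0.40 ± 0.05 at 24 h (adjusted p = 4.84e-05).

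Chromosomal passenger genes encode the complex that corrects wrong kinetochore attachments and then acts in cytokinesis. On the deposited scale none of its 3 members passed at 4 h, and all 3 rose at every later time against 0 h. With equal totals Aurkb passed at 4 h (0.21, limma, adjusted p = 0.0419). Aurkb, its kinase, had 2104 and 2079 normalized reads at 0 h, 2539 and 2202 at 4 h, 2551 and 2608 at 8 h and 2845 and 2881 at 12 h. It had 3407 and 3261 at 16 h, 3811 and 3834 at 20 h, 3493 and 3349.8 at 24 h, 3458 and 3156 at 28 h and 3219 and 3323 at 32 h. The pairs from 16 h on lay above all earlier libraries. The change was 0.30 ± 0.07 at 8 h (adjusted p = 0.00296) and 0.87 ± 0.07 at 20 h (adjusted p = 2.00e-07).

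Incenp, the scaffold of the complex, had 4404 and 3869 normalized reads at 0 h, 5329 and 4571 at 4 h, 5650.3 and 4843 at 8 h and 6078 and 5232 at 12 h. It had 6641 and 6165 at 16 h, 6911 and 6451 at 20 h, 6721 and 6255 at 24 h, 6200.2 and 5538 at 28 h and 5798 and 5521 at 32 h. Replicate 1 was above replicate 2 at all 9 times, and every later library was above the 0 h pair, at 4 h by a small margin. It rose by 0.69 ± 0.10 at 20 h (adjusted p = 9.16e-05). At 4 h Incenp was 0.26 ± 0.10 (adjusted p = 0.0854, or 0.000295 with the replicate block), and with the block Aurkb and Birc5 passed as well (adjusted p = 0.0184 and 0.026). Birc5, survivin, had the smallest change of the 3 at 20 h, 0.53 ± 0.06 (adjusted p = 8.44e-06).

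Kinetochore genes rose by a median of 0.75 at 20 h against 0 h, all 6 past the threshold. The time at which each rise first passed differed, and differences between genes were not tested. On the deposited scale Cenpe and Cenpf rose at 4 h, Ndc80 at 8 h, Nuf2 and Spc25 at 12 h, and Cenpa at 20 h. Before that Cenpa had fallen, by changes that missed the threshold with equal totals and with quantile normalization. With equal totals Nuf2 and Spc25 passed at 8 h (limma, adjusted p = 0.00893 and 0.0112). Cenpf, a large protein of the outer kinetochore, had 2667 and 2655 normalized reads at 0 h, 3569 and 3090.3 at 4 h, 3962 and 3538 at 8 h and 4091 and 3867 at 12 h. It had 4805 and 4734 at 16 h, 5707 and 5509.6 at 20 h, 5596 and 5796 at 24 h, 5386 and 4969 at 28 h and 5396 and 4992 at 32 h. Every pair from 4 h on was above 0 h, and the 16 h and later pairs were above all earlier libraries. It rose by 0.32 ± 0.07 at 4 h (adjusted p = 0.00819) and by 1.07 ± 0.07 at 20 h (adjusted p = 9.40e-08).

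Spc25, a subunit of the Ndc80 complex that binds microtubules, had 712 and 725 normalized reads at 0 h, 673 and 763 at 4 h, 796 and 935 at 8 h and 868 and 1145 at 12 h. It had 1150.2 and 1293 at 16 h, 1279 and 1349 at 20 h, 1161 and 1347 at 24 h, 1160.2 and 1143 at 28 h and 1163 and 1214 at 32 h. The 4 h pair straddled the 0 h pair, and replicate 2 was above replicate 1 at every time but 28 h. The change was 0.26 ± 0.12 at 8 h (adjusted p = 0.103, or 0.00904 with the block), 0.47 ± 0.12 at 12 h (adjusted p = 0.00688) and 0.87 ± 0.12 at 20 h (adjusted p = 5.40e-05). Nuf2 and Ndc80, subunits of the same complex, were 1.55-fold and 1.67-fold higher at 20 h (adjusted p = 1.58e-06 and 1.69e-06). Cenpe, a kinetochore motor, was 1.7-fold higher (adjusted p = 6.97e-07).

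Cenpa, the histone variant that marks centromeres, had 1903 and 1841 normalized reads at 0 h, 1675 and 1696 at 4 h, 1614 and 1685 at 8 h and 1697 and 1632 at 12 h. It had 1966 and 1857 at 16 h, 2299 and 2341 at 20 h, 2281 and 2448 at 24 h, 2176 and 2261 at 28 h and 2161 and 2205 at 32 h. The libraries of 4 h, 8 h and 12 h were all below the 0 h pair, those of 16 h were close to it, and those of 20 h and later were above it. The change was -0.18 ± 0.06 at 8 h (adjusted p = 0.0212), -0.17 ± 0.06 at 12 h (adjusted p = 0.0284) and 0.31 ± 0.06 at 20 h (adjusted p = 0.000527). With equal totals the 8 h value was -0.04 (adjusted p = 0.595), that of 12 h was 0.0087, and Cenpa already passed at 16 h (0.22, adjusted p = 0.00458), where the deposited scale gave 0.03 ± 0.06 (adjusted p = 0.715). With quantile normalization the falls at 8 h and 12 h missed the threshold (-0.12 and -0.11, adjusted p = 0.113 and 0.156). They also missed it when either 0 h library was left out. At 4 h it was -0.15 ± 0.06 (adjusted p = 0.0682, or 0.0308 with the block).

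**Figure D3:**
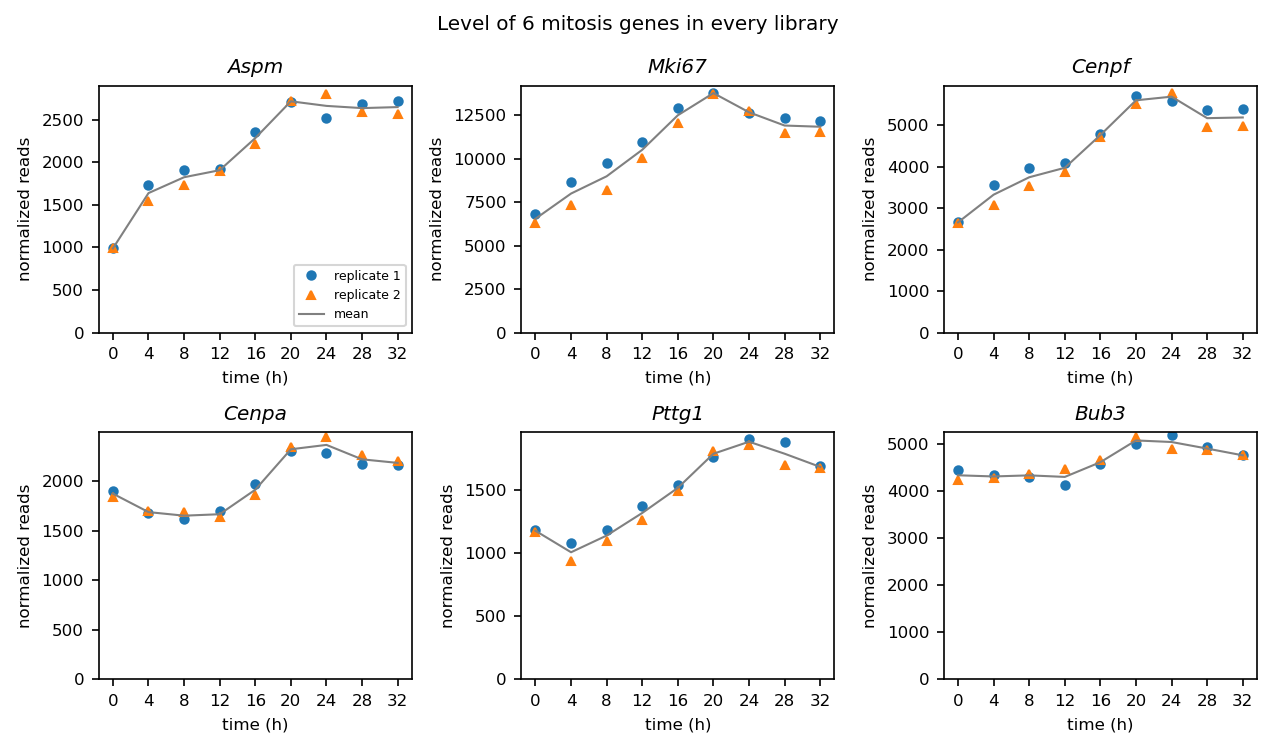
Normalized reads of 6 genes in each library (circles, replicate 1, and triangles, replicate 2) and their mean (line) against time in hours. Aspm, Mki67 and Cenpf are above their 0 h libraries from 4 h on, while Cenpa and Pttg1 dip early and Bub3 stays near its 0 h level until 12 h on this deposited scale.

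Of the 8 kinesins 5 rose at 4 h, or 7 with the replicate block, and all 8 rose at every later time against 0 h. Their median was 0.29 at 4 h and 0.84 at 20 h. Kif18a, which dampens chromosome movements at the metaphase plate, had the largest change of the list at 4 h (0.66 ± 0.08, adjusted p = 0.000125) and at 24 h (1.14 ± 0.08, adjusted p = 1.71e-07). Kif20b, Kif2c and Kif11 also rose at 4 h, by 0.49 ± 0.08, 0.47 ± 0.08 and 0.28 ± 0.05 (adjusted p = 0.000616, 0.00087 and 0.00184). Kif2c removes tubulin from microtubule ends, and Kif11 pushes the spindle poles apart.

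Kif20a, a kinesin of the central spindle, had 2447 and 2452 normalized reads at 0 h, 2677 and 2497 at 4 h, 3309 and 3081 at 8 h and 3294 and 3284 at 12 h. It had 3744 and 3536 at 16 h, 4405 and 4219 at 20 h, 4348 and 4367 at 24 h, 4433 and 4059 at 28 h and 4115 and 4113 at 32 h. The pairs from 8 h on stood well above 0 h, and the 4 h pair was above it by a small margin. Its change was 0.08 ± 0.06 at 4 h (adjusted p = 0.375), 0.38 ± 0.06 at 8 h (adjusted p = 0.00025) and 0.83 ± 0.06 at 24 h (adjusted p = 1.08e-07).

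Kif23, a component of centralspindlin, had 2748 and 2640.2 normalized reads at 0 h, 3555 and 3137 at 4 h, 3562 and 3247 at 8 h and 3562 and 3215 at 12 h. It had 3970.1 and 3789 at 16 h, 4597 and 4319 at 20 h, 4243 and 4042 at 24 h, 4019 and 3477 at 28 h and 3734 and 3453 at 32 h. The 4 h, 8 h and 12 h libraries covered the same range, above 0 h, and replicate 2 at 28 h and 32 h came back into that range. It rose by 0.31 ± 0.08 at 4 h (adjusted p = 0.0183) and by 0.73 ± 0.08 at 20 h (adjusted p = 1.16e-05). Kif4 and Kif22, kinesins that bind chromosomes, were 1.43-fold and 1.81-fold higher at 20 h (adjusted p = 7.91e-06 and 1.46e-06). At 4 h they missed the threshold (adjusted p = 0.12 and 0.091), and passed with the block (0.0288 and 0.00917).

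Condensin and chromosome genes rose by a median of 0.75 at 20 h against 0 h, all 7 past the threshold. Top2a and Mki67 had risen at 4 h and the 5 condensin subunits at 8 h. Top2a, the topoisomerase that untangles sister chromatids, had 18602 and 18273 normalized reads at 0 h, 21274 and 20235 at 4 h, 22968 and 21648 at 8 h and 23731 and 23858 at 12 h. It had 28081 and 27653 at 16 h, 30631 and 29643 at 20 h, 27786 and 29395 at 24 h, 27946 and 27264 at 28 h and 27206 and 27315 at 32 h. The pairs were ordered by time up to 16 h without overlap. It rose by 0.17 ± 0.05 at 4 h (adjusted p = 0.0316) and by 0.71 ± 0.05 at 20 h (adjusted p = 1.57e-07).

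Mki67, the proliferation marker that coats mitotic chromosomes, had 6791 and 6291 normalized reads at 0 h, 8648 and 7328 at 4 h, 9748 and 8212 at 8 h and 10948 and 10055 at 12 h. It had 12927 and 12043 at 16 h, 13792 and 13725 at 20 h, 12601 and 12713 at 24 h, 12319 and 11471 at 28 h and 12136 and 11516 at 32 h. Every library from 4 h on was above the 0 h pair, and the 20 h pair was the highest. It rose by 0.28 ± 0.09 at 4 h (adjusted p = 0.034) and by 1.07 ± 0.09 at 20 h (adjusted p = 4.32e-07), the largest of the list.

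Smc4, an ATPase core subunit of condensin, had 7556 and 7104 normalized reads at 0 h, 7686 and 7636 at 4 h, 8430.4 and 8249.7 at 8 h and 8382 and 8687 at 12 h. It had 9268 and 9296 at 16 h, 9908 and 8876 at 20 h, 9237 and 9721 at 24 h, 9346 and 8815 at 28 h and 8709.6 and 8838 at 32 h. The 0 h pair was the lowest, and every library from 16 h on was above all earlier ones. The change was 0.19 ± 0.06 at 8 h (adjusted p = 0.0238) and 0.37 ± 0.06 at 24 h (adjusted p = 0.000181). Its partner Smc2 was 1.39-fold higher at 20 h (adjusted p = 5.08e-05). The regulatory subunits Ncapd2, Ncapg and Ncaph were 1.69-fold, 1.68-fold and 1.79-fold higher (adjusted p = 4.88e-06, 2.60e-06 and 2.13e-07).

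Spindle genes held the widest range of any list, from 1.32-fold in Tpx2 to 2.75-fold in Aspm at 20 h over 0 h. Aspm and Tpx2 rose at 4 h, while Nusap1, Hmmr and Dlgap5 did not pass. Aspm, a protein of the spindle poles, had 988 and 987 normalized reads at 0 h, 1728 and 1546 at 4 h, 1910.1 and 1736 at 8 h and 1914 and 1896 at 12 h. It had 2355 and 2209 at 16 h, 2706 and 2721 at 20 h, 2517 and 2803 at 24 h, 2683 and 2585 at 28 h and 2722 and 2569.7 at 32 h. Its 0 h libraries were nearly equal and far below all others. The rise was 0.73 ± 0.07 at 4 h (adjusted p = 1.54e-05), 1.46 ± 0.07 at 20 h (adjusted p = 3.11e-09) and 1.42 ± 0.07 at 32 h (adjusted p = 3.58e-09), at each of these times the largest of all 48.

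Tpx2, which activates Aurora A and nucleates microtubules, had 6336 and 5753 normalized reads at 0 h, 7324 and 6553 at 4 h, 7144 and 6802 at 8 h and 7038 and 6739.7 at 12 h. It had 7509 and 7239.5 at 16 h, 8199 and 7715 at 20 h, 7782 and 7749 at 24 h, 7715 and 7239 at 28 h and 7337 and 6928 at 32 h. All libraries from 4 h on were above the 0 h pair, but the 4 h pair overlapped those of 8 h, 12 h, 16 h, 28 h and 32 h. The call at 4 h was marginal (0.20 ± 0.07, adjusted p = 0.0481): edgeR (0.0564), no filter (0.0675) and no variance trend (0.0738) missed the threshold. The value was 0.12 without replicate 1 of 4 h and 0.13 without replicate 2 of 0 h, neither past the threshold. With any 1 library of 8 h to 32 h left out, the value stayed at 0.20 and missed the threshold as well. Tpx2 rose by 0.40 ± 0.07 at 20 h (adjusted p = 0.000301). Nusap1, a microtubule-bundling protein, was -0.26 ± 0.10 at 4 h (adjusted p = 0.0807, or 0.00623 with the block) and rose by 0.86 ± 0.10 at 20 h (adjusted p = 1.43e-05). Hmmr and Dlgap5, which bind spindle microtubules, were 1.6-fold and 1.56-fold higher at 20 h (adjusted p = 5.85e-07 and 1.10e-05).

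Cytokinesis genes rose by a median of 0.52 at 20 h against 0 h, all 4 past the threshold, and at 4 h Ect2 alone passed. Ect2, the exchange factor that switches on RhoA at the division plane, had 1733 and 1701 normalized reads at 0 h, 2383 and 2354 at 4 h, 2577 and 2683 at 8 h and 2782 and 2825 at 12 h. It had 3072 and 3104 at 16 h, 3353 and 2939 at 20 h, 3073 and 3141 at 24 h, 3230.1 and 2922 at 28 h and 3131 and 3000.5 at 32 h. Apart from replicate 1 at 20 h, the libraries from 16 h to 32 h were close together. It was 0.46 ± 0.06 at 4 h (adjusted p = 0.000261), 0.85 ± 0.06 at 16 h (adjusted p = 2.75e-07) and 0.87 ± 0.06 at 20 h (adjusted p = 1.80e-07).

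Anln, which ties actin, myosin and septins together in the ring, had 10856 and 10124 normalized reads at 0 h, 11647 and 10769 at 4 h, 11499 and 11388 at 8 h and 11276 and 11603 at 12 h. It had 12502 and 12446 at 16 h, 13399.9 and 12679.7 at 20 h, 12243 and 12228 at 24 h, 12190.4 and 11188 at 28 h and 11581 and 11069.5 at 32 h. One 4 h library lay within the 0 h range, and the pairs of 8 h, 12 h and 32 h were above it by a small margin on the deposited scale. It rose by 0.31 ± 0.06 at 20 h (adjusted p = 0.000735) and was 0.11 ± 0.06 at 32 h (adjusted p = 0.149, or 0.0487 with the replicate block). Equal totals gave 0.32 and quantile normalization 0.32 at 32 h (adjusted p = 0.000578 and 0.000688). At 8 h and 12 h Anln was 0.13 ± 0.06 and 0.13 ± 0.06 (adjusted p = 0.113 and 0.113), and passed with the block (0.0294 and 0.0292), with equal totals (0.00337 and 0.00115) and with quantile normalization (0.00748 and 0.00382). Prc1, which bundles the central spindle, and Racgap1, the partner of Kif23, were 1.4-fold and 1.48-fold higher at 20 h (adjusted p = 1.28e-05 and 1.04e-06).

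**Figure D4:**
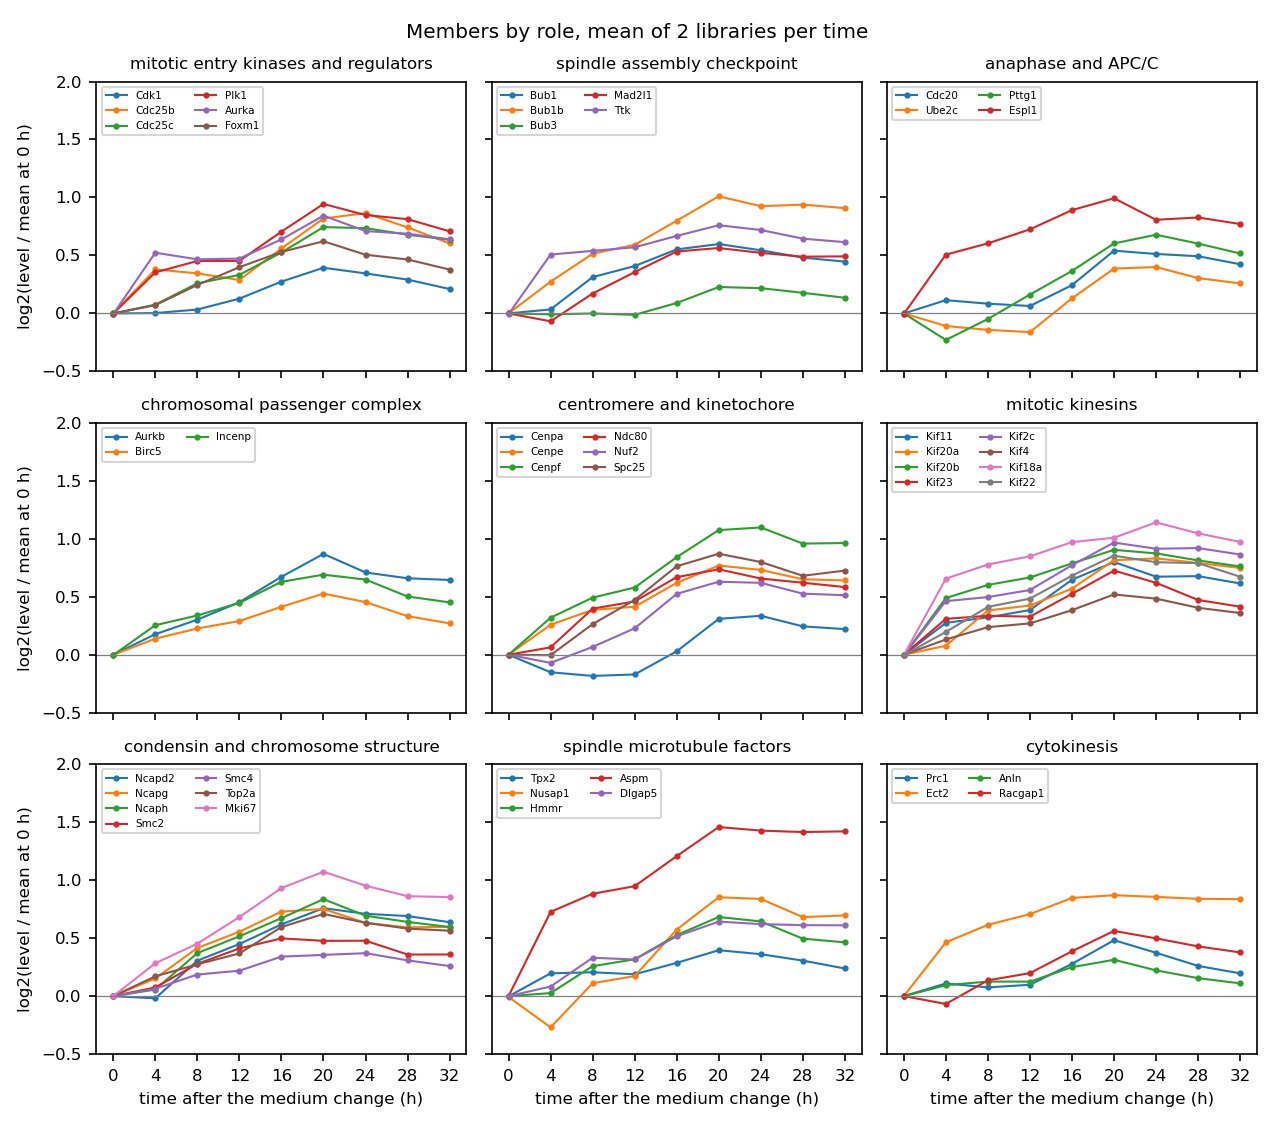
Log2 of the level over the mean level at 0 h (vertical axis) against time in hours, in a panel for each of 9 role lists, each line a gene and each point the mean of 2 libraries. Lines climb to 20 h or 24 h in every panel, from an early dip in Pttg1, Ube2c, Cenpa and Nusap1, and Aspm stands highest.

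An early rise and a later rise were compared over libraries they do not share, 4 h against 0 h and 16 h against 8 h. At 16 h against 8 h 26 of 48 members rose and none fell, where 6.88% of all tested genes passed (3.34% higher and 3.54% lower). All 48 had a positive change, with a median of 0.26 and a median of all genes near 0. With the replicate block 42 rose, where 21.9% of all genes passed. The count rested on single libraries. It was 4 or 10 when replicate 1 or replicate 2 of 16 h was left out, and 11 or 8 when replicate 1 or replicate 2 of 8 h was. Mad2l1, Nuf2, Kif11 and Top2a passed in all 27 alternatives.

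The largest later changes were in Spc25 (0.50 ± 0.12, adjusted p = 0.0227), Mki67 (0.48 ± 0.09, adjusted p = 0.00518), Nusap1 (0.46 ± 0.10, adjusted p = 0.0146), Nuf2 (0.46 ± 0.06, adjusted p = 0.000526) and Pttg1 (0.41 ± 0.07, adjusted p = 0.00461). The smallest were in Tpx2 (0.08) and Bub3 (0.09), which did not pass. Of the role lists, 5 of 6 kinetochore genes and 5 of 7 condensin and chromosome genes rose in this step, and 2 of 8 kinesins and 1 of 3 passenger genes did. With the replicate block these counts were 6 of 6, 7 of 7, 7 of 8 and 3 of 3, and no difference between lists was tested. Of the 18 members that rose at 4 h, 9 (50%) also rose at 16 h against 8 h, which is 34.6% of the 26: Cdc25b, Bub1b, Cenpf, Kif11, Kif2c, Top2a, Mki67, Aspm and Ect2. Plk1, Aurka, Ttk, Espl1, Cenpe, Kif20b, Kif23, Kif18a and Tpx2 passed at 4 h against 0 h and not at 16 h against 8 h. The other 17 of the 26 passed in the later step alone, and 13 members passed in neither. With the replicate block 20 passed in both, 4 in the early step alone (Aurka, Ttk, Kif18a and Tpx2), 22 in the later step alone and 2 (Bub3 and Anln) in neither. Whether a gene's 2 changes differ from each other was not tested.

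With the block 24 members rose and 3 fell at 4 h, where 37.6% of all genes passed. The 4 h count also depended on single libraries: it was 9 in both directions together without replicate 2 of 0 h, and 10 when replicate 1 of 4 h was left out. The 9 members that passed at 4 h in all 27 alternatives were Cdc25b, Aurka, Ttk, Kif11, Kif20b, Kif2c, Kif18a, Aspm and Ect2. The other 9 that rose, Plk1, Bub1b, Espl1, Cenpe, Cenpf, Kif23, Top2a, Mki67 and Tpx2, each missed the threshold with at least 1 library left out.

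**Figure D5:**
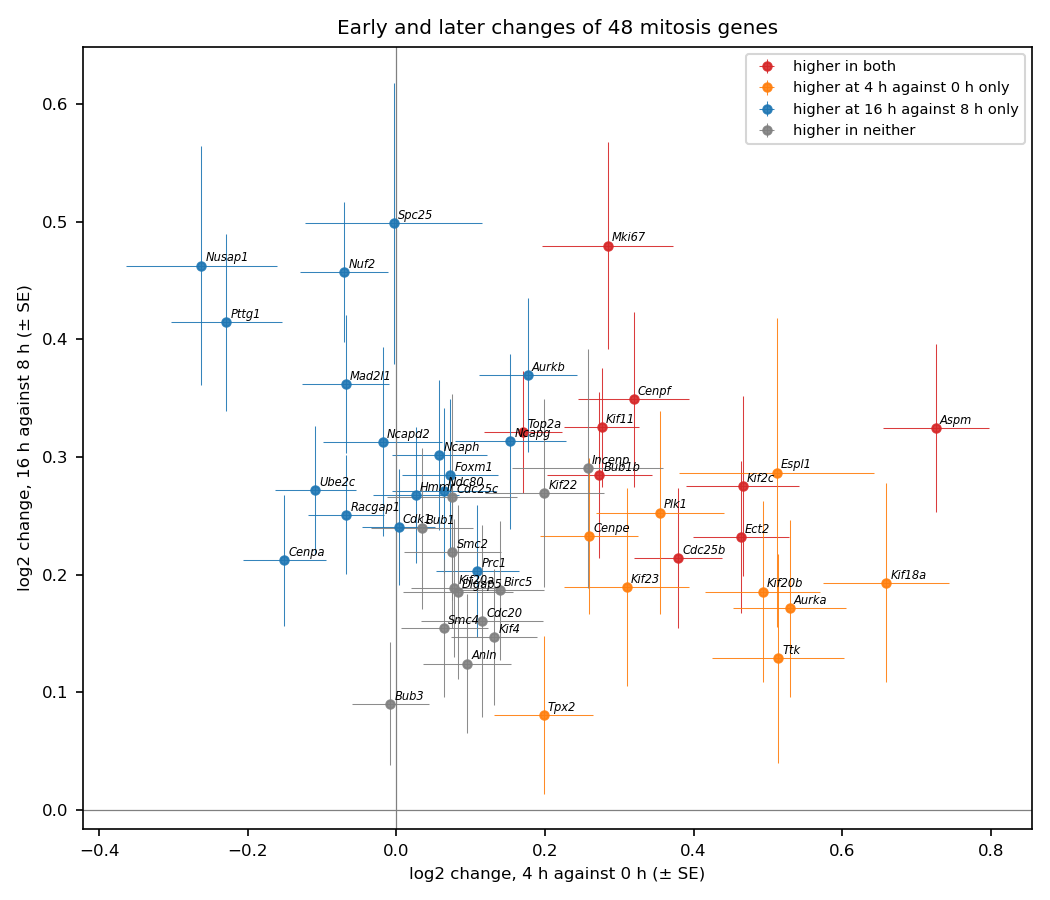
Log2 change at 4 h against 0 h (horizontal axis) and at 16 h against 8 h (vertical axis) for the 48 genes, with standard errors as bars. Colour gives in which comparison a gene rose: 9 in both, 9 at 4 h against 0 h alone, 17 at 16 h against 8 h alone and 13 in neither, with Aspm and Kif18a far right and Spc25, Mki67 and Nusap1 at the top.

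Few changes passed in the later steps of 8 h. At 24 h against 16 h Cenpa alone passed (0.31 ± 0.06, adjusted p = 0.0457), where 0.169% of all tested genes did (0.137% higher and 0.0323% lower). It missed the threshold without a filter, without the variance trend and in each of the 18 fits that left out 1 library. With the replicate block 9 rose, where 4.29% of all genes passed: Cenpa and Cdc25b, Cdc20, Ube2c, Pttg1, Cenpf, Kif20a, Nusap1 and Aspm (adjusted p = 0.00176, 0.000427, 0.004, 0.00415, 0.00881, 0.00291, 0.0362 and 0.049 for the last 8). DESeq2 called 5, Cenpa, Cdc25b, Ube2c, Pttg1 and Kif20a, where it called 0.662% of all genes.

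At 32 h against 24 h no member passed with limma, where 0.0403% of all genes did (0.00807% higher and 0.0323% lower), and the lowest adjusted p of a member was 0.460. All 48 changes were negative, with a median of -0.11 and a median of all genes near 0. The changes ran from -0.26 (Cdc25b) to -0.01 (Aspm). With the replicate block Cdc25b (-0.26), Incenp (-0.20) and Kif23 (-0.21) fell (adjusted p = 0.0164, 0.0378 and 0.0298), where 1.95% of all genes passed.

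A rhythm of 24 h, the pattern that a dexamethasone pulse sets in clock genes of these cells, was fitted as a cosine and sine. No member passed with limma (adjusted p 0.261 to 0.868), where 0.371% of all tested genes did. Smc2 alone had an unadjusted p under 0.05, and edgeR and DESeq2 called none. The fit with a linear term in time, which takes up a steady rise, called 25 of 48, where 17.0% of all genes passed. In those 25 the fitted peak lay at 15.8 h to 22.2 h and the fitted peak was 1.11-fold to 1.41-fold the trough. They held 6 of 7 condensin and chromosome genes, 3 of 4 anaphase genes, 4 of 6 kinetochore genes, 2 of 3 passenger genes and 3 of 5 checkpoint genes. They also held 3 of 6 entry genes, 2 of 4 cytokinesis genes, 2 of 5 spindle genes and none of 8 kinesins. The kinesin Kif11 missed the threshold narrowly (limma, adjusted p = 0.0502), and no difference between lists was tested. Without 0 h 1 member passed (background 0.621%), and without 0 h and 4 h 14 passed (background 1.15%). The series covers 32 h, so a peak near 20 h was covered once.

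Other genes of mitosis, 62 of a list of 65 that were in the table and none of them among the 48, moved in the same direction for the most part. At 20 h 56 rose and 2 fell against 0 h, with a median of 0.59, where 19.6% of all tested genes were higher and 19% lower. At 4 h 21 rose and 4 fell, where 11% of all tested genes were higher and 10.5% lower. The 6 with the smallest p over the 9 times were Cdca3, Ncapd3, Cenpm, Ckap2, Ccnb1 and Casc5. At 20 h Ccnb1, cyclin B, the partner of Cdk1, rose by 0.59 ± 0.05 (adjusted p = 6.11e-07). Ncapd3, a condensin subunit, rose by 0.70 ± 0.05, Ckap2, a microtubule-binding protein, by 1.05 ± 0.09, and Casc5, a kinetochore scaffold that recruits Bub proteins, by 0.91 ± 0.06 (adjusted p = 9.87e-08, 4.13e-07 and 8.22e-08). Cdca3 and Cenpm, a centromere protein, rose by 0.73 ± 0.06 and 0.64 ± 0.07 at 20 h (adjusted p = 7.67e-07 and 8.43e-06). At 4 h they had fallen, with changes of -0.32 ± 0.06 and -0.27 ± 0.07 (adjusted p = 0.00287 and 0.0155), as had Ccnb2, another B-type cyclin (-0.35 ± 0.08, adjusted p = 0.00946), and Wee1, the kinase that inhibits Cdk1 (-0.40 ± 0.07, adjusted p = 0.00183). Wee1 and Zwint, a kinetochore protein, were the 2 that were lower at 20 h (-0.23 ± 0.07 and -0.28 ± 0.06, adjusted p = 0.0246 and 0.00133). These sizes are close to the shift of 0.20 that equal totals gave the median gene at 20 h, while at 4 h that shift was 0.03. In the 24 h rhythm fit without a linear term Wee1 alone of the 62 passed (limma, adjusted p = 0.00968), where 0.371% of all tested genes did. Its fitted peak lay at 0.64 h, 1.48-fold the trough.

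DNA replication genes, which are transcribed before mitosis genes in the cell cycle, numbered 30. At 4 h 2 rose, at 8 h 19, at 12 h 28, at 16 h all 30, and at 32 h 22, all against 0 h and none lower. Of all tested genes 11%, 17.3%, 18.1%, 18.7% and 20.5% were higher at these times. The shares lower were 10.5%, 17.1%, 18.2%, 17.8% and 20.4%. The count higher at 4 h was below the share of all genes. Their median change was 0.47 at both 16 h and 20 h, where the 48 members had 0.58 and 0.74. It was 0.28 at 32 h, where the members had 0.60. In the 24 h rhythm fit with a linear term 27 of the 30 passed, against 25 of the 48 members and 17.0% of all tested genes. At 20 h Pola1, the catalytic subunit of the primase-polymerase, rose by 0.50 ± 0.07, and the helicase subunits Mcm5, Mcm6 and Mcm7 by 0.45 ± 0.05, 0.39 ± 0.06 and 0.48 ± 0.06 (adjusted p = 4.49e-05, 1.68e-05, 8.80e-05 and 3.13e-05).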

How the data were processed

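Gene counts were deposited as signal, named normalized reads: per the submitters' processing notes the authors used TopHat, HTSeq, DESeq and build mm9, with versions and roles not given in the sources used here. The deposited signal values are counts divided by 1 factor per library, as the whole reads recovered within 0.02 show, and strand use is not given. Here limma 3.58.1 (R 4.3.3) fitted log2(value + 1) with a variance trend over 18 libraries, for genes with a mean of at least 10. Contrasts were 8 times against 0 h and 3 steps of 8 h. edgeR 4.0.16 and DESeq2 1.42.0, run on recovered reads, other scalings, filters and left-out libraries were alternatives. Libraries that share a replicate number deviated together in 36 of 36 pairs of times (correlation 0.230 to 0.502). The replicate block, an alternative, took the number to pair libraries. The main fit held no block, so its SE and adjusted p ignore this pairing. The pairing comes from the data, since the labels say nothing of it. The fit was tested on simulated data. Every value is given for the members with the lowest and highest p over the 9 times in each role list and for Cdk1, Plk1, Foxm1, Mki67 and Bub3, and Cenpa was added after its values were seen. The 48 members and all lists were chosen with earlier results of these data known. The depth, 25.4 to 38.9 M reads, leaves members at 448 to 30631 normalized reads.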

Additional observations from a re-analysis of the deposited data

How the results depend on the processing

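With 1 choice changed at a time, in 27 alternatives, the count of members that passed stayed within 1.5 times its size for the test over the 9 times and for 8, 12, 16, 20, 24, 28 and 32 h against 0 h. Leaving out 1 library gave 9 to 21 members at 4 h against 0 h, 26 to 38 at 8 h, 35 to 41 at 12 h, 42 to 45 at 16 h, 48 at 20 h, 47 to 48 at 24 h, 46 to 48 at 28 h and 44 to 47 at 32 h. It gave 4 to 27 for the step to 16 h after 8 h, and 0 for the steps to 24 h and to 32 h and for the rhythm. With the replicate number as a block 42 members passed in the 8 h step to 16 h, 9 in that to 24 h and 3 in that to 32 h, and the block moved no other count beyond 1.5 times. At 24 h against 16 h no filter and no variance trend gave 0 and DESeq2 gave 5, where limma had 1. The rhythm gave 25 with a linear term, 1 without 0 h and 14 without 0 h and 4 h. Scaling to equal totals gave 34 higher at 16 h against 8 h, where 6.69% of all genes were higher. Of the member changes that passed on either scale, it turned the sign of 4 by its upward shift of the median gene. They were Bub3 at 8 h and 12 h, to 0.14 and 0.17 (adjusted p = 0.0385 and 0.0154), Ube2c at 12 h, to 0.017, and Cenpa at 12 h, to 0.0087, all with limma against 0 h. Changes of sign that passed on neither scale were not counted. Over all member contrasts and alternatives the call was the same in 13843 results, though the size of the change could differ. Of the others 137 newly passed, 272 no longer passed and 4 were the turned ones above. With 2 libraries per time, leaving 1 out assumes that the lone library varies like the others.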
